A study of Homo sapiens with 12 samples.

Results

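The 10 genes described here encode PDK4 and the machinery that sets the activity of the pyruvate dehydrogenase complex: the kinases PDK1, PDK2, PDK3 and PDK4, the phosphatases PDP1 and PDP2, and the complex subunits PDHA1, PDHB, DLAT and PDHX. They are 10 of the 26535 features in the deposited tables and were picked by gene name. PDK4 was put forward because its messenger RNA was higher with VGF in A549, so its values in that comparison are a description with no p-value. The other 9 genes were taken for their place in the same reaction. All 10 passed the filter on low counts.

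RNA-seq was done on 2 established human lung cancer lines, H1299, a non-small-cell carcinoma line, and A549, a lung adenocarcinoma line. H1299 was maintained in RPMI-1640 and A549 in DMEM/F12, both with fetal bovine serum and antibiotics, so line and medium cannot be told apart. The 4 groups, of 3 libraries each, were H1299 with the VGF lentivirus, H1299 with the empty vector, A549 with the VGF lentivirus and A549 with the empty vector. VGF is a secreted neuroendocrine precursor protein, and the data come from cultured lines and not from tumours.

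The pyruvate dehydrogenase complex sits in the mitochondrial matrix and turns pyruvate into acetyl-CoA, the step that commits glycolytic carbon to the citric acid cycle. The kinases phosphorylate its E1 alpha subunit and switch it off, and the phosphatases take the phosphate away and switch it on. PDK4 is known as the kinase induced by fasting, fatty acids and glucocorticoids through PPAR, FOXO and glucocorticoid receptors, and PDK1 as a target of the hypoxia factor HIF-1.

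Library totals ran from 31378171 to 41919484 counts. Levels of single genes are given as CPM, counts scaled to library size after TMM scaling, and levels are compared between genes only in the deposited FPKM, which are divided by transcript length. VGF itself had 980 ± 119 CPM in H1299 with VGF and 85.6 ± 7.26 CPM with the empty vector, and 1283 ± 80.1 CPM in A549 with VGF and 2.43 ± 0.373 CPM with the empty vector (SD, n = 3 each). The keratin genes KRT8 and KRT18 held at least 18157 and 23472 counts in every library. They reached at most 22028 and 27048 counts in H1299 libraries, against at least 120606 and 72312 in A549 libraries. KRT7 had 29 to 90 counts in H1299 and 34824 to 43030 in A549, and KRT19 had at most 191 in any library. CDH1, the epithelial cadherin, had 0 counts in all 6 H1299 libraries, and EPCAM had at most 36 counts in any library. A549 VGF library 2 stood apart by endothelial genes: the 10 listed endothelial markers summed to 419 CPM there, against 75.9 to 92.9 CPM in the other 5 A549 libraries, and CDH5 alone had 3387 counts. All 10 markers had counts there, as they also did in A549 VGF library 1. The same sum was 24.5 to 29.1 CPM in H1299 with VGF and 23.3 to 24.8 CPM in H1299 with the empty vector. The part of these transcripts in the results was not tested, and values without that library stand beside the A549 results. Of 5 markers of muscle, a tissue known for much PDK4, TNNT2 had 0 counts in every library, MYH7 at most 2, CKM at most 9, MYH2 at most 12 and ACTN2 at most 38. The 5 summed to 0.985 to 1.10 CPM in H1299 with VGF, 0.930 to 1.03 CPM in H1299 with the empty vector, 0.308 to 0.690 CPM in A549 with VGF and 0.627 to 1.08 CPM in A549 with the empty vector. Of the 3 fat markers, ADIPOQ and LEP had 0 counts in every library and PLIN1 at most 31.

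The start regions of PDK4 and PDK3 are shown because these are the 2 kinases that were far lower in H1299. Each window runs from 250 bases before to 50 bases after the start site in RefSeq on GRCh38.p14, at chr7:95596467-95596766 on the minus strand for PDK4 and chrX:24465036-24465335 on the plus strand for PDK3. Capitals mark matches, on either strand, to the Sp1 GC box GGGCGG, the CCAAT box CCAAT and the HIF core ACGTG.
PDK4: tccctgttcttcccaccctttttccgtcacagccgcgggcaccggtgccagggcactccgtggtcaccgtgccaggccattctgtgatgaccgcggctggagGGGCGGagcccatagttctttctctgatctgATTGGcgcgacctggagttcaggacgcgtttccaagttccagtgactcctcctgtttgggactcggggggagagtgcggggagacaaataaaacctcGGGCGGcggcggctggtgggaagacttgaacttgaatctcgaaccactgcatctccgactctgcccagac
PDK3: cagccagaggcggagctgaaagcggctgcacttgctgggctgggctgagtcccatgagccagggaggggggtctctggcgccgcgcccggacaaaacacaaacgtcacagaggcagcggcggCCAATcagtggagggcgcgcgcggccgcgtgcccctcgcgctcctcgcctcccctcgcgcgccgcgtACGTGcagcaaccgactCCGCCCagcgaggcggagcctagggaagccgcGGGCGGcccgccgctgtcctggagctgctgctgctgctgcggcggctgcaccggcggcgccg
The PDK4 window held GGGCGG with its first base at -148 and at -20 and ATTGG, the CCAAT box on the opposite strand, at -117. The PDK3 window held CCAAT at -128, ACGTG at -61, CCGCCC, the GC box on the opposite strand, at -44 and GGGCGG at -12. These are common letters: on either strand GGGCGG was found in 44.9%, CCAAT in 34.6% and ACGTG in 21.4% of 35097 RefSeq windows of this length. The FOXO motif GTAAACA, the ERR half-site AAGGTCA and the shorter nuclear receptor half-site AGGTCA, which AAGGTCA contains, were also searched, and none of their letters occurred in either window. They occurred in 3.42%, 3.92% and 13.8% of all windows. Bases outside the windows were not searched, nor was a glucocorticoid receptor element or a full PPAR element, so absence of such sites from these genes is not shown. The PDK4 window was 60.7% G or C with 21 CpG, and the PDK3 window 74.3% with 39 CpG. Windows were at hand for 9 of the 10 genes, PDP1 being the exception, and DLAT was the only one of the 9 with AGGTCA.

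PDK4 (ENSG00000004799; chromosome 7, 95583499 to 95596491, minus strand; GRCh38, GENCODE 29, as for all genes here) had 105, 88.8 and 97.9 CPM in A549 VGF libraries 1 to 3, against 40.5, 44.6 and 68.2 CPM in A549 empty vector libraries 1 to 3. The groups did not overlap, and empty vector library 3 was the nearest to the VGF libraries. The means were 97.2 ± 8.05 CPM with VGF and 51.1 ± 14.96 CPM with the empty vector (SD, n = 3 each), a 1.90-fold difference, with a log2 fold change of 0.93 (SE 0.165). It was 0.99 without VGF library 2 and 1.19 without empty vector library 3, the widest move made by any single library. The lowest value, 0.785, came without empty vector library 1. In bulk RNA, fewer cells holding a message and less of it per cell cannot be told apart.

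PDK4 was scarce in H1299. It had 70, 86 and 62 counts, or 1.72, 2.16 and 1.46 CPM, in H1299 VGF libraries, against 100, 114 and 73 counts, or 2.23, 2.59 and 1.77 CPM, in empty vector libraries. These groups overlapped, and VGF was higher in 1 of the 9 library pairs. The log2 fold change in H1299 was -0.31 (SE 0.27, 95% interval -0.89 to 0.27), with an adjusted p of 0.899 by edgeR. The difference between the VGF effects, H1299 minus A549, was -1.24 (SE 0.315) on the log2 scale. It holds the A549 contrast that chose the gene and is a description.

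Between the lines, PDK4 was 23.2-fold lower in H1299 than in A549 with the empty vector (log2 fold change -4.53, SE 0.213, edgeR adjusted p = 4.61e-10). With VGF in both lines it was 54.6-fold lower in H1299 (log2 fold change -5.77, SE 0.223). That contrast holds the A549 VGF libraries that chose the gene and was added after the data had been seen, so it is a description. Every H1299 library was below every A549 library. The difference is smaller on the log2(FPKM + 1) scale, which understates the change of low genes: -3.04 with the empty vector and -4.04 with VGF. By size of change with the empty vector in edgeR, PDK4 ranked 2824th of 18228 features tested, the top 15.5%.

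PDK3 (ENSG00000067992; chromosome X, 24465221 to 24541862, plus strand), known as the isoform least inhibited by pyruvate, shared this direction between the lines. It had 2.96, 4.01 and 4.13 CPM in H1299 VGF libraries, 3.95, 5.26 and 5.62 CPM in H1299 empty vector libraries, 32.0, 30.8 and 31.2 CPM in A549 VGF libraries, and 29.1, 27.3 and 28.8 CPM in A549 empty vector libraries. All 6 H1299 libraries were below all 6 A549 libraries. PDK3 was 5.75-fold lower in H1299 than in A549 with the empty vector (log2 fold change -2.52, SE 0.140, edgeR adjusted p = 2.43e-09) and 8.46-fold lower with VGF (-3.08, SE 0.145, 4.52e-10). On the log2(FPKM + 1) scale these differences were -1.61 and -2.14, with limma adjusted p-values of 5.30e-07 and 3.82e-08. With VGF the A549 libraries were all above their empty vector libraries, at a log2 fold change of 0.14 (SE 0.129, edgeR adjusted p = 0.721). The H1299 groups overlapped, at -0.42 (SE 0.145, edgeR adjusted p = 0.509).

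PDK2 (ENSG00000005882; chromosome 17, 50094737 to 50112152, plus strand), the widely expressed isoform, ran the other way. It had 36.2, 38.7 and 40.1 CPM in H1299 VGF libraries, 42.5, 43.2 and 42.8 CPM in H1299 empty vector libraries, 31.9, 29.6 and 31.3 CPM in A549 VGF libraries, and 30.6, 31.7 and 26.9 CPM in A549 empty vector libraries. It was 1.44-fold higher in H1299 than in A549 with the empty vector (log2 fold change 0.53, SE 0.067, edgeR adjusted p = 9.20e-06) and 1.24-fold higher with VGF (0.31, SE 0.067, 9.47e-04). In H1299 all 3 VGF libraries were below all 3 empty vector libraries, at -0.16 (SE 0.066, edgeR adjusted p = 0.600). In A549 the groups overlapped, at 0.06 (SE 0.068, edgeR adjusted p = 0.814). Of the annotated exonic bases of PDK2, 38.6% also lie in exons of SAMD14 on the other strand, and since the counting is not stated to use strand, reads of these genes cannot be told apart there.

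PDK1 (ENSG00000152256; chromosome 2, 172555373 to 172608669, plus strand) had 16.2, 16.3 and 13.3 CPM in H1299 VGF libraries, 14.9, 16.2 and 14.4 CPM in H1299 empty vector libraries, 26.9, 27.7 and 25.4 CPM in A549 VGF libraries, and 19.0, 20.8 and 20.2 CPM in A549 empty vector libraries. In A549 every VGF library was above every empty vector library, while in H1299 the groups overlapped. The log2 fold change with VGF was 0.41 in A549 (SE 0.092), with an edgeR adjusted p of 0.0611 that missed the threshold of 0.05. Over 19 alternatives the adjusted p ran from 0.00395 with DESeq2 to 0.363 on FPKM at a pseudocount of 0.1. It passed in 3 of them, the others being the 6 A549 libraries fitted alone (0.0393) and the fit without H1299 VGF library 3 (0.0355). It was 0.223 without A549 empty vector library 1. In H1299 it was 0.01 (SE 0.093, edgeR adjusted p = 1.00). The difference between these effects was -0.40 (SE 0.131, edgeR adjusted p = 0.297).

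PDK1 was 1.32-fold lower in H1299 than in A549 with the empty vector (log2 fold change -0.40, SE 0.093, edgeR adjusted p = 0.00148) and 1.75-fold lower with VGF (-0.80, SE 0.093, 3.56e-06). On FPKM the call with VGF was lost, at -0.22 with a pseudocount of 1 (limma adjusted p = 0.121) and -0.31 with 0.1 (0.137). With the empty vector the call was lost too, and the direction turned. The log2 difference on FPKM was 0.10 at a pseudocount of 1 (limma adjusted p = 0.495) and 0.13 at 0.1 (0.521). The transcript length implied by the count and the FPKM of a library had a median of 8047 bases for PDK1 in H1299 libraries and 10487 bases in A549 libraries. On the FPKM scale the median of all features also moved up by 0.114 at a pseudocount of 1.

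**Figure D1:**
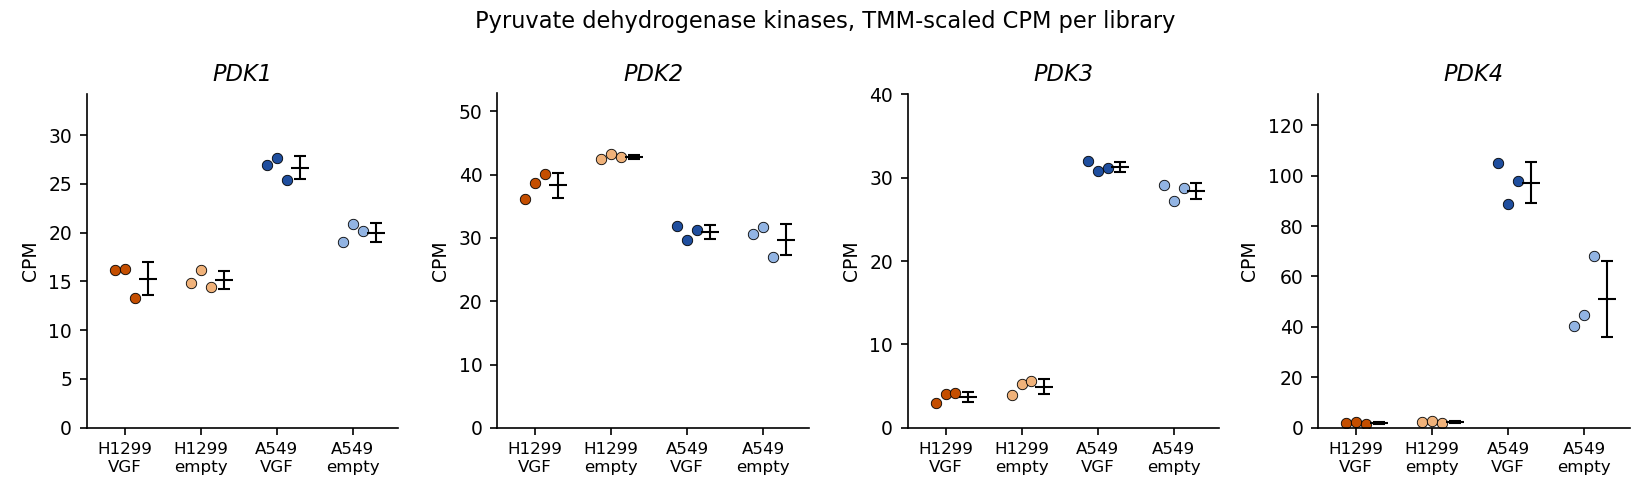
TMM-scaled CPM of the 4 kinases (vertical axes, each from 0) in the 3 libraries of each group (points), with the mean and SD beside them. PDK4 sits at 1.46 to 2.59 CPM in H1299 and at 40.5 to 105 CPM in A549, and PDK3 at 2.96 to 5.62 CPM in H1299 and at 27.3 to 32.0 CPM in A549.

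Per transcript length, the leading kinase differed between the lines. The 4 kinases summed to 14.9 ± 1.04 FPKM in H1299 with VGF, 16.9 ± 0.191 FPKM in H1299 with the empty vector, 42.5 ± 2.40 FPKM in A549 with VGF and 28.8 ± 3.11 FPKM in A549 with the empty vector (SD, n = 3 each). PDK2 made up 75.7% ± 2.88 of that sum in H1299 with VGF, 75.2% ± 1.53 in H1299 with the empty vector, 18.5% ± 0.321 in A549 with VGF and 26.8% ± 4.66 in A549 with the empty vector. PDK4 made up 3.37% ± 0.650 in H1299 with VGF, 3.66% ± 0.612 in H1299 with the empty vector, 55.9% ± 1.71 in A549 with VGF and 43.1% ± 7.85 in A549 with the empty vector.

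PDK4 was thus the most abundant of the 4 messages in every A549 library, and PDK2 in every H1299 library. The order of mean FPKM in H1299 was PDK2, PDK1, PDK3, PDK4 under both vectors, with PDK1 and PDK3 overlapping between libraries with the empty vector. The transcript length implied by count and FPKM was not constant over H1299 libraries. It ran from 2823 to 5010 bases for PDK3 and from 6938 to 10596 bases for PDK1, and this variation enters their FPKM and shares. In A549 with the empty vector PDK2 and PDK3 were neighbours at 6.92 to 8.08 and 6.41 to 7.28 FPKM, which overlap, and PDK1 was lowest at 1.67 to 1.86 FPKM. With VGF they overlapped too, at 7.54 to 8.17 FPKM for PDK2 and 8.13 to 8.61 FPKM for PDK3. These shares describe messenger RNA, and no test was made on sums over genes chosen in this way.

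**Figure D2:**
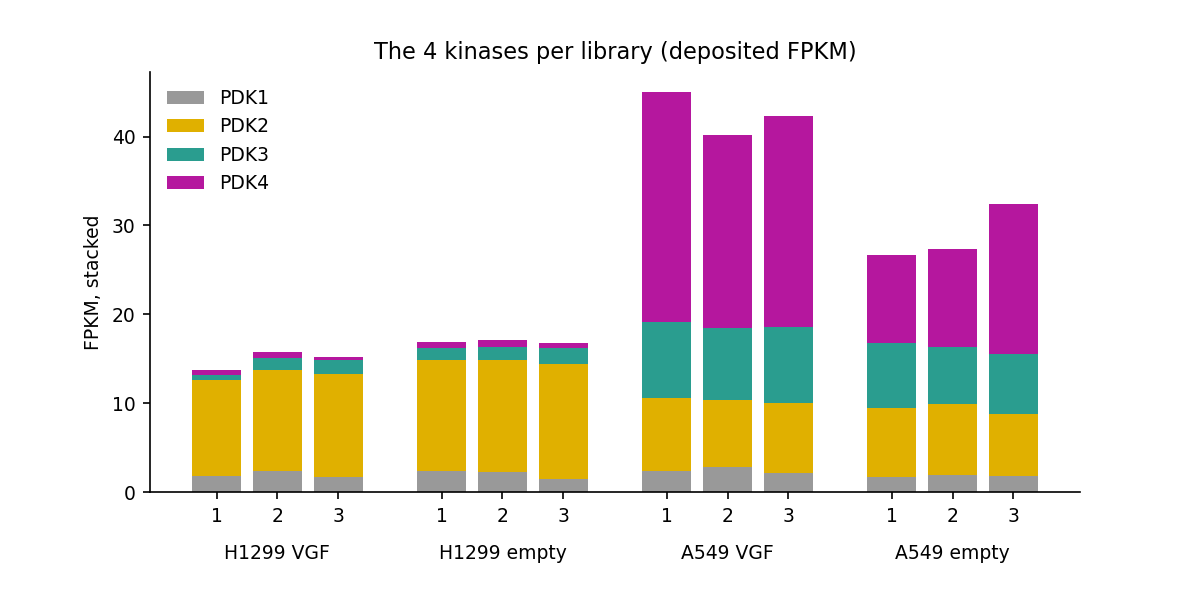
Deposited FPKM of PDK1, PDK2, PDK3 and PDK4 stacked for each of the 12 libraries (vertical axis, FPKM; numbers are library numbers). PDK2 fills most of each H1299 bar, and PDK4 is the largest layer of each A549 bar.

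PDP1 (ENSG00000164951; chromosome 8, 93857807 to 93926066, plus strand), the calcium-stimulated phosphatase subunit, showed the opposite difference between the lines from PDK4. It had 217, 241 and 204 CPM in H1299 VGF libraries, 206, 197 and 199 CPM in H1299 empty vector libraries, 7.49, 14.5 and 10.99 CPM in A549 VGF libraries, and 10.8, 9.62 and 10.1 CPM in A549 empty vector libraries. The lowest H1299 library was far above the highest A549 library. PDP1 was 19.7-fold higher in H1299 than in A549 with the empty vector (log2 fold change 4.30, SE 0.164, edgeR adjusted p = 6.00e-11) and 19.9-fold higher with VGF (4.31, SE 0.163, 5.46e-11). The lines differed by 4.17 to 4.59 on the log2 scale with the empty vector over 18 settings, FPKM included.

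VGF moved PDP1 little beside that. In A549 the VGF libraries spread from 7.49 to 14.5 CPM on both sides of the empty vector libraries, with a log2 fold change of 0.13 (SE 0.169, edgeR adjusted p = 0.844). Without VGF library 2, which was the highest, it was -0.13. In H1299 the log2 fold change was 0.14 (SE 0.136, edgeR adjusted p = 0.930).

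PDP2 (ENSG00000172840; chromosome 16, 66878589 to 66895754, plus strand), the phosphatase subunit known for its insulin response, had 25.8, 26.96 and 30.2 CPM in H1299 VGF libraries, 28.96, 27.02 and 26.9 CPM in H1299 empty vector libraries, 23.0, 23.4 and 20.9 CPM in A549 VGF libraries, and 30.5, 26.2 and 32.8 CPM in A549 empty vector libraries. In A549 all VGF libraries were below all empty vector libraries. The log2 fold change there was -0.41 (SE 0.091), with an edgeR adjusted p of 0.0615 that missed the threshold. Over 19 alternatives the adjusted p ran from 0.00510 with DESeq2 to 0.302 on FPKM at a pseudocount of 0.1. It passed in 2 of them, the other being edgeR without A549 empty vector library 2 (0.0416), and was 0.211 without empty vector library 1. In H1299 it was 0.00 (SE 0.090, edgeR adjusted p = 1.00), and the difference between the effects was 0.41 (SE 0.128, edgeR adjusted p = 0.276).

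Between the lines PDP2 overlapped with the empty vector, at a log2 fold change of -0.11 (SE 0.090, edgeR adjusted p = 0.273). With VGF it was 1.23-fold higher in H1299 than in A549 (0.30, SE 0.091, edgeR adjusted p = 0.00889). Summed over both phosphatases, FPKM were 72.4 ± 6.44 in H1299 with VGF, 65.1 ± 2.66 in H1299 with the empty vector, 5.66 ± 0.778 in A549 with VGF and 6.62 ± 0.692 in A549 with the empty vector (SD, n = 3 each). PDP1 supplied 93.3%, 92.6%, 40.7% and 36.5% of these sums in that order of groups.

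The ratio of summed kinase to summed phosphatase FPKM was 0.206 ± 0.0201 in H1299 with VGF, 0.260 ± 0.0118 in H1299 with the empty vector, 7.64 ± 1.37 in A549 with VGF and 4.37 ± 0.429 in A549 with the empty vector. The phosphatase messages thus outweighed the kinase messages in every H1299 library, and the kinase messages did in every A549 library. In A549 the ratio was 6.14 to 8.83 in VGF libraries and 3.88 to 4.68 in empty vector libraries, with no overlap. VGF library 2 had the 6.14, and the PDK4 share of the kinases in A549 with VGF was 56.8% without it. PDK4 is a large part of this ratio, so it repeats the contrast that chose the gene.

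**Figure D3:**
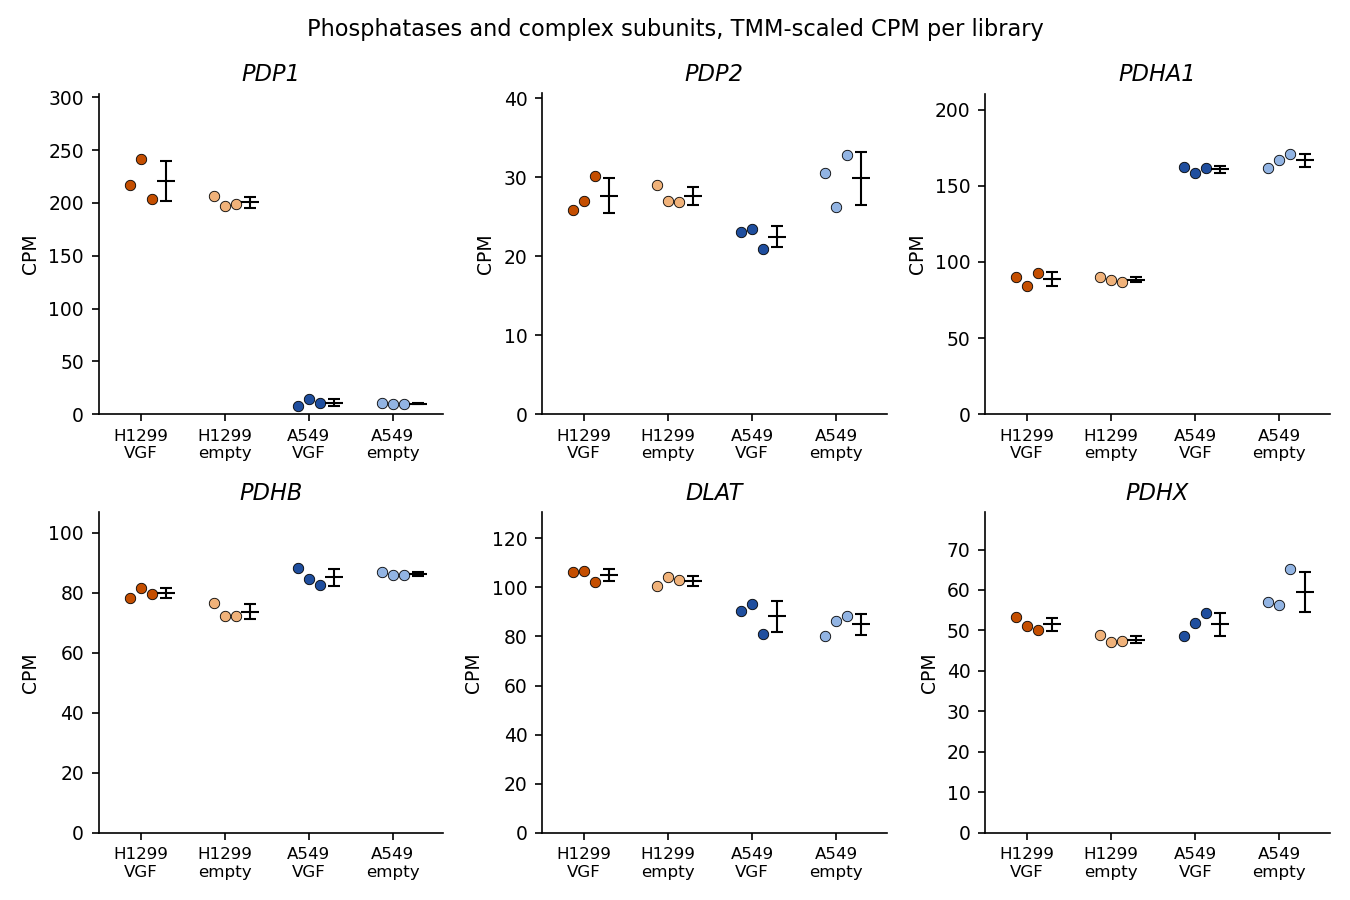
TMM-scaled CPM of PDP1, PDP2 and the 4 complex subunits (vertical axes, each from 0) in the 3 libraries of each group (points), with the mean and SD beside them. PDP1 is at 197 to 241 CPM in H1299 and at 7.49 to 14.5 CPM in A549, while PDP2 and the subunits differ far less between the lines.

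PDHA1 (ENSG00000131828; chromosome X, 19343893 to 19361705, plus strand), the E1 alpha subunit that the kinases phosphorylate, was the subunit with the largest difference between the lines of the 4. It had 90.0, 84.1 and 92.5 CPM in H1299 VGF libraries, 90.3, 87.9 and 87.0 CPM in H1299 empty vector libraries, 163, 158 and 162 CPM in A549 VGF libraries, and 162, 167 and 171 CPM in A549 empty vector libraries. No H1299 library reached an A549 library. PDHA1 was 1.88-fold lower in H1299 than in A549 with the empty vector (log2 fold change -0.91, SE 0.045, edgeR adjusted p = 8.00e-10) and 1.81-fold lower with VGF (-0.86, SE 0.045, 1.53e-09). Of its annotated exonic bases, 21.3% overlap exons of MAP3K15 on the other strand. With VGF the log2 fold change was 0.01 in H1299 (SE 0.045, 95% interval -0.09 to 0.11, edgeR adjusted p = 1.00) and -0.05 in A549 (SE 0.045, 95% interval -0.15 to 0.05, edgeR adjusted p = 0.715).

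PDHB (ENSG00000168291; chromosome 3, 58427630 to 58433857, minus strand) encodes E1 beta, the partner of PDHA1 in the E1 tetramer. It had 78.4 to 81.8 CPM in H1299 with VGF, 72.3 to 76.7 CPM in H1299 with the empty vector, 82.6 to 88.3 CPM in A549 with VGF and 85.8 to 87.1 CPM in A549 with the empty vector. The H1299 groups did not overlap, at a log2 fold change with VGF of 0.12 (SE 0.044, edgeR adjusted p = 0.560). In A549 it was -0.02 (SE 0.045, edgeR adjusted p = 0.940). PDHB was 1.17-fold lower in H1299 than in A549 with the empty vector (-0.23, SE 0.044, edgeR adjusted p = 4.56e-04), a call lost on FPKM (-0.03, limma adjusted p = 0.474 at a pseudocount of 1). With VGF it was -0.09 (SE 0.044, edgeR adjusted p = 0.0805). On FPKM at a pseudocount of 1 it passed as higher in H1299 (0.11, limma adjusted p = 0.0288). The median of all features in that FPKM contrast was 0.107, so PDHB was near the typical feature. The ratio of PDHA1 to PDHB FPKM was 0.520 ± 0.0355 in H1299 with VGF, 0.570 ± 0.0141 in H1299 with the empty vector, 0.904 ± 0.0207 in A549 with VGF and 0.918 ± 0.0305 in A549 with the empty vector. The 2 E1 messages were therefore nearer to equal in A549.

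DLAT (ENSG00000150768; chromosome 11, 112024814 to 112064390, plus strand) encodes E2, the acetyltransferase core to which the kinases bind through its lipoyl domains. It had 102 to 107 CPM in H1299 with VGF, 100 to 104 CPM in H1299 with the empty vector, 81.2 to 93.3 CPM in A549 with VGF and 80.2 to 88.3 CPM in A549 with the empty vector. It was 1.21-fold higher in H1299 than in A549 with the empty vector (log2 fold change 0.27, SE 0.057, edgeR adjusted p = 7.33e-04) and 1.19-fold higher with VGF (0.25, SE 0.057, 0.00127). With VGF the log2 fold change was 0.04 in H1299 (SE 0.056, edgeR adjusted p = 0.995) and 0.06 in A549 (SE 0.057, edgeR adjusted p = 0.767).

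PDHX (ENSG00000110435; chromosome 11, 34915829 to 35020591, plus strand) encodes the E3-binding protein that docks dihydrolipoamide dehydrogenase to the E2 core. It had 53.3, 51.1 and 50.2 CPM in H1299 VGF libraries, against 48.8, 47.1 and 47.4 CPM in H1299 empty vector libraries. In A549 it had 48.5, 51.8 and 54.3 CPM in VGF libraries, against 57.1, 56.2 and 65.1 CPM in empty vector libraries. The groups did not overlap in either line, with VGF higher in all 9 library pairs in H1299 and lower in all 9 in A549. Of all features, 12.7% in H1299 and 18.4% in A549 had groups that did not overlap. The PDHX log2 fold change was 0.11 in H1299 (SE 0.063, edgeR adjusted p = 0.745) and -0.21 in A549 (SE 0.063, edgeR adjusted p = 0.163). The difference between these effects was 0.32 (SE 0.089), with an edgeR adjusted p of 0.243 that missed the threshold. PDHX was 1.25-fold lower in H1299 than in A549 with the empty vector (-0.32, SE 0.063, edgeR adjusted p = 4.90e-04), a call lost on FPKM (-0.12, limma adjusted p = 0.0867 at a pseudocount of 1). With VGF in both lines the groups overlapped in CPM (0.00, SE 0.063, edgeR adjusted p = 0.994). On FPKM at a pseudocount of 1 this contrast was 0.21 and passed the test as higher in H1299 (limma adjusted p = 0.00701). The median of all features on that scale was itself 0.107.

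Counted together, 1 of the 10 genes, PDK4, passed an edgeR adjusted p of 0.05 for VGF against the empty vector in A549, where 0.79% of all features tested did. PDK4 was chosen on this contrast, so nothing is read from that count, which was 0 without A549 VGF library 1 or 3 or without empty vector library 1. Without empty vector library 2 the 1 gene passing was PDP2 and not PDK4. At an unadjusted p under 0.05 there were 4 of 10, PDK4 among them, against 13.9% of features, and DESeq2 called PDK1, PDK4 and PDP2, against 3.85% of features. The groups did not overlap for PDK1, PDK3, PDK4, PDP2 and PDHX, 5 of 10, against 18.4% of all features. PDK4 is in each of these counts because of how it was chosen, and nothing is read from its part in them. The median size of the log2 fold change was 0.134 over the 10 genes and 0.122 over all features. With A549 VGF library 2 left out, the A549 log2 fold change was 0.39 for PDK1, 0.09 for PDK2, 0.15 for PDK3, -0.44 for PDP2, -0.04 for PDHA1, -0.01 for PDHB, 0.01 for DLAT and -0.21 for PDHX, and none of these passed the test.

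In H1299, edgeR called 0 of the 10 genes for VGF against the empty vector, where it called 0.011% of all features. At an unadjusted p under 0.05 there were 3, against 7.8% of features, and DESeq2 called 0, against 0.678% of features. The groups did not overlap for PDK2, PDHB and PDHX, 3 of 10, against 12.7% of all features. For the difference between the VGF effects edgeR called 0 of 10, against 0.159% of all features, with 6 at an unadjusted p under 0.05, PDK4 among them, against 11.2% of features. DESeq2 called 1, PDK4, against 1.55% of features, and nothing is read from that call because this contrast holds the one that chose the gene.

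**Figure D4:**
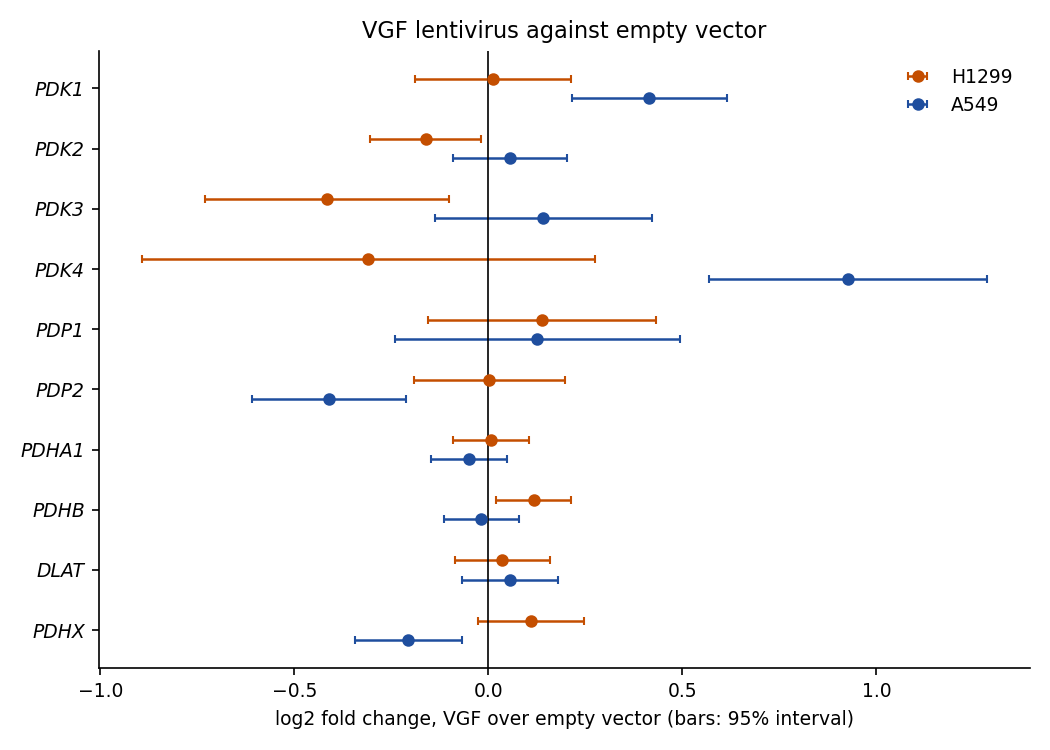
Log2 fold change with the VGF lentivirus over the empty vector (horizontal axis) for each of the 10 genes in H1299 and in A549 (points; bars are 95% intervals, not adjusted for the number of features). PDK4 in A549 stands farthest to the right at 0.93. The A549 bars of PDK1, PDP2 and PDHX and the H1299 bars of PDK2, PDK3 and PDHB also clear 0, and none of these 6 passed after adjustment.

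Between the lines with the empty vector 9 of the 10 genes passed the test, 3 higher in H1299 and 6 lower, against 77.2% of all features, 38.5% higher and 38.6% lower. PDP2 was the exception. With VGF, in a contrast that holds the A549 libraries that chose PDK4, 8 of 10 passed, 4 higher and 4 lower in H1299. Of all features 77.3% passed there, 38.2% higher and 39.1% lower. A share this near the background is no result about these genes as a group, and the median size of the log2 difference with the empty vector was 0.465 over the 10 genes, below the 0.971 over all features. Groups of the lines did not overlap for 9 of 10 under each vector, against 81% of all features with the empty vector and 79.5% with VGF. In the edgeR fit with the empty vector PDK4, PDP1 and PDK3 differed by over 5-fold and the other 7 genes by less than 2-fold. The same 8 genes passed between the lines with VGF when A549 VGF library 2 was left out, at -5.81 for PDK4, -3.07 for PDK3 and 4.59 for PDP1.

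**Figure D5:**
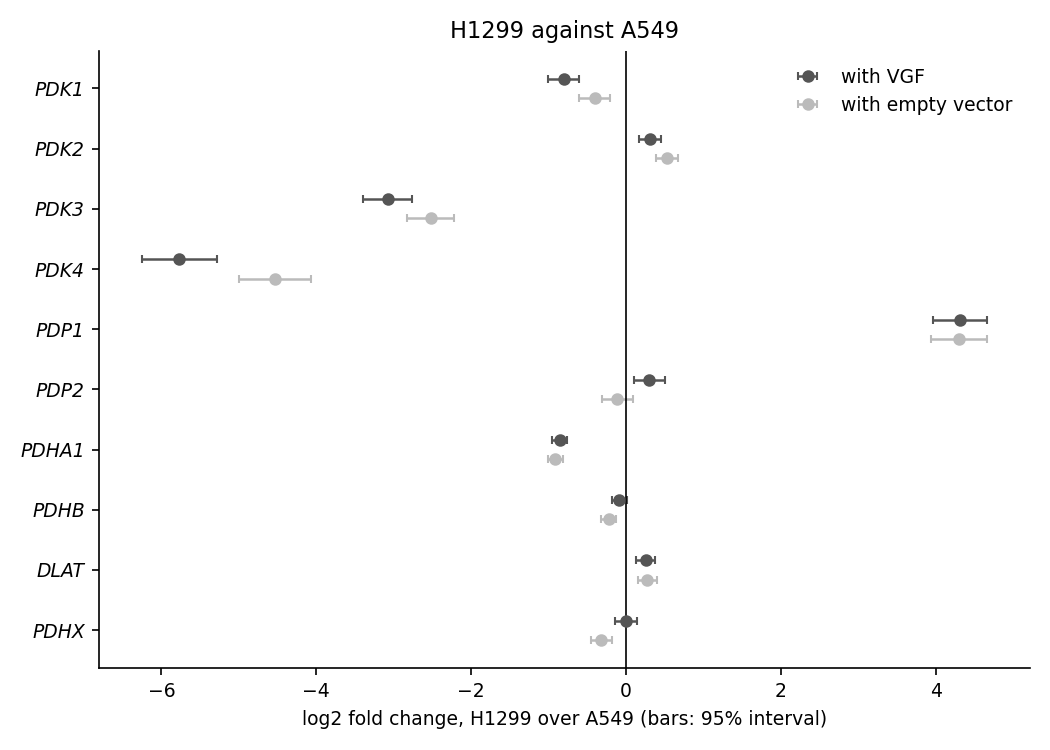
Log2 fold change of H1299 over A549 (horizontal axis) for each of the 10 genes, with VGF in both lines and with the empty vector in both (points; bars are 95% intervals). PDK4 at -5.77 and -4.53 and PDK3 at -3.08 and -2.52 lie far to the left, PDP1 at 4.31 and 4.30 far to the right, and the other 7 genes between -0.91 and 0.53.

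Beyond the 10 genes, 75 genes of pyruvate use and PDK4 control were listed, and 72 could be tested. None was called by edgeR for VGF against the empty vector in A549. There 10 of 72 had an unadjusted p under 0.05, against 13.9% of all features. DESeq2 called 6, counted in either direction (ACADVL, CREB3L3, DDIT4, HADHA, KLF9 and UCP2), against 3.85% of all features. In H1299 edgeR also called 0, with 11 at an unadjusted p under 0.05, against 7.8% of all features. DESeq2 called 2 there, ADM and ANGPTL4, also in either direction, against 0.678% of all features. For the difference between the effects edgeR and DESeq2 both called 0, against 0.159% and 1.55% of all features. At an unadjusted p under 0.05 there were 14, against 11.2% of all features. Between the lines with the empty vector 27 of the 72 were higher in H1299 and 38 lower, where 38.5% of all features were higher and 38.6% lower. The counts of the lists that follow are to be read against these shares, and none is a result about a list.

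The remaining parts of the complex were DLD, its shared E3 dehydrogenase, the phosphatase regulator PDPR and the lipoylation enzymes. Of 5 tested, 2 were higher and 2 lower in H1299 than in A549 with the empty vector, where 77.2% of all features passed. LIAS, the lipoyl synthase, was at 39.2 ± 2.05 CPM in H1299 and 9.38 ± 1.53 CPM in A549 (log2 fold change 2.06, edgeR adjusted p = 1.40e-09). LIPT1, a lipoyltransferase, was also higher (0.97, edgeR adjusted p = 0.00115), while LIPT2, which transfers the octanoyl precursor, was lower (-1.50, edgeR adjusted p = 5.37e-04). DLD was at 96.1 ± 6.36 CPM in H1299 and 132 ± 4.08 CPM in A549 (-0.46, edgeR adjusted p = 7.02e-06).

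Of the 13 genes of pyruvate supply and its other fates, 8 were higher and 5 lower in H1299 with the empty vector, against 38.5% and 38.6% of all features. SLC16A3, the lactate exporter MCT4, was at 226 ± 16.6 CPM in H1299 and 44.8 ± 2.76 CPM in A549 (log2 fold change 2.34, edgeR adjusted p = 8.55e-12). PCK2, mitochondrial PEP carboxykinase, and GPT2, mitochondrial alanine transaminase, were higher too, at 1.65 and 1.76. LDHA, which makes lactate from pyruvate, was at 510 ± 29.05 CPM in H1299 and 2559 ± 74.3 CPM in A549 (-2.33, edgeR adjusted p = 2.10e-13). ACLY, ATP citrate lyase, and MPC2, a subunit of the mitochondrial pyruvate carrier, were also lower, at -1.68 and -1.24.

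The related 2-oxoacid dehydrogenases and their control gave 6 higher and 3 lower of 9, against 38.5% and 38.6% of all features. The higher ones included PPM1K, the phosphatase of the branched-chain complex (log2 fold change 1.68), and the branched-chain E1 subunits BCKDHB (1.01) and BCKDHA (0.72). The lower ones were DHTKD1 of the 2-oxoadipate complex (-1.19), the branched-chain kinase BCKDK (-0.46) and the branched-chain E2 DBT (-0.30).

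Of 14 tested regulators known to act on PDK4, 4 were higher and 10 lower in H1299 with the empty vector, against 38.5% and 38.6% of all features, with a median log2 difference of -0.76 against 0.01 over all features. RXRA, the partner of the PPARs, was at 1.13 ± 0.388 CPM in H1299 and 44.8 ± 3.64 CPM in A549 (-5.30, edgeR adjusted p = 7.37e-12). HIF1A (-2.17) and NR3C1, the glucocorticoid receptor (-1.76), were lower as well. FOXO3 (1.27), FOXO4 (1.37) and the coactivator PPARGC1A (4.84) were higher. PPARGC1A was at 8.29 ± 0.610 CPM in H1299 and 0.285 ± 0.207 CPM in A549. These regulators moved in both directions, and their part in the PDK4 difference was not tested.

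Among 21 tested targets of PPAR, FOXO or the glucocorticoid receptor, 6 were higher and 10 lower in H1299 with the empty vector, against 38.5% and 38.6% of all features. The insulin receptor substrate IRS2 (-7.22), the lipoprotein lipase inhibitor ANGPTL4 (-2.91) and the acyl-CoA dehydrogenase ACADVL (-1.17) were lower. The lipid droplet protein PLIN2 (2.68), the transcription factor KLF9 (0.97) and the acyl-CoA dehydrogenase ACADM (0.68) were higher. Of 10 HIF-1 targets other than PDK1, 8 were lower, among them NDRG1 (-7.61), ADM (-3.58) and the glucose transporter SLC2A1 (-1.73), and 1 was higher, VEGFA (0.30), where 38.6% of all features were lower and 38.5% higher.

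The genes whose log2 CPM followed PDK4 most closely over the 12 libraries were TOP2A (Pearson r = 0.998), TMOD3, CCDC68, BCL2L11 and GALNT1, of 11139 genes compared. All 5 were lower in H1299 than in A549, as PDK4 was. Within the 6 A549 libraries they were LDHA (0.997), RBM24, CEP57, MBIP and UPK1B, and within the 6 H1299 libraries SIRT3 (0.989), GLI4, PDE4A, ROGDI and ZNF529. These are descriptions over few libraries, and the highest of 11139 values is high by selection. In A549, LDHA was at 2732 ± 34.4 CPM with VGF and 2559 ± 74.3 CPM with the empty vector (SD, n = 3 each), a far smaller difference than that of PDK4.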

How the data were processed

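Messenger RNA of 12 libraries was profiled, 3 in each of 4 groups taken from titles and characteristics. The treatment note of all 12 libraries names the empty vector and was not used for grouping. The authors deposited raw counts per feature and, for the same features, FPKM, divided by length and depth. GRCh38 and DESeq2 appear in the submitters' processing notes. No aligner, counter or strand setting is named in the sources used here. Stray text lines (18) were left out.

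Counts were tested with edgeR 4.0.16 in R 4.3.3 (quasi-likelihood F test, TMM, filterByExpr by group, Benjamini-Hochberg over 18228 features, called at an adjusted p under 0.05). One fit of 4 group means had 8 residual degrees of freedom and no replicate block. Standard errors come from the F statistic, and 95% intervals use its t quantile. DESeq2 1.42.0 and limma 3.58.1 on log2 FPKM (pseudocount 1 or 0.1) were alternatives, as were RLE scaling, no filter, each line fitted alone and each library left out. The contrast of the lines with VGF was added after the data had been seen. The fitting was tested on simulated data.

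The 10 genes and all lists were chosen with earlier results of these data known. For each list, up to 3 called genes per direction were named by smallest p in the contrasts of the lines. Gene coordinates are from GENCODE 29 and start regions from RefSeq. The design text calls the replicates biologically independent.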

Additional observations from a re-analysis of the deposited data

Results flagged for a closer look

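The gene of the E3-binding protein, PDHX, was higher with VGF in all 9 library pairs in H1299 and lower in all 9 in A549, and neither effect passed the test (edgeR adjusted p = 0.745 in H1299 and 0.163 in A549). The difference between the effects, H1299 minus A549, was 0.32 on the log2 scale (SE 0.089). Its edgeR adjusted p was 0.243, so the difference did not pass the test over all features. VGF and empty vector groups also did not overlap for 12.7% of all features in H1299 and 18.4% in A549.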

How the results depend on the processing

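With DESeq2 the calls for VGF were 3 of the 10 genes and 709 of all features in A549, and 128 features in H1299. For the difference between the VGF effects they were 1 and 279. With edgeR these counts were, in the same order, 1 and 144, 2, and 0 and 29. With the A549 libraries fitted alone 2 of the 10 genes were called in A549, and on log2 FPKM at a pseudocount of 0.1 there were 0. In H1299 the features called were 4 with the line fitted alone, 4 on FPKM at a pseudocount of 1 and 5 with no filter. Deviations of same-numbered libraries correlated at 0.024, -0.032 and -0.088 in A549 and 0.049, 0.033 and 0.055 in H1299. Different-numbered libraries gave -0.061 to 0.104 in A549 and -0.053 to 0.0078 in H1299. All were small, and whether the replicate numbers pair the libraries was not settled. With the replicate block, 63 features were called in A549 and 1 in H1299, and PDP2 in H1299 was at -9.65e-05. For the contrasts between the lines a replicate block could not be fitted. Leaving out each library in turn gave 0 to 2 of the 10 genes and 52 to 130 features in A549, 1 to 4 features in H1299, and 0 to 1 genes and 18 to 36 features for the difference. The count between the lines was 9 with the empty vector and 8 with VGF in each of these. The PDK4 share of kinase signal in A549 with VGF was 52.2% on CPM.

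Some effects changed sign. On FPKM (pseudocounts 0.1 and 1) PDHA1 in H1299 was at -0.016 and -0.015, PDK1 in H1299 at -0.017 and -0.015, and PDP1 in A549 at -0.079 and -0.050. Between the lines with the empty vector PDK1 was at 0.13 and 0.096 and PDP2 at 0.19 and 0.15, none past the threshold. Between the lines with VGF, PDHX was at 0.22 and 0.21 and PDHB at 0.11 and 0.11, all 4 past the threshold. PDHX there was 0.0032 with DESeq2, 0.0029 with RLE scaling and 0.0046 with no filter. On FPKM the median of all features between the lines moved by 0.188 and 0.114 with the empty vector and by 0.197 and 0.117 with VGF. Leaving out each library gave ranges across 0 for PDHA1 (-0.023 to 0.046), PDK1 (-0.037 to 0.10) and PDP2 (-0.065 to 0.049) in H1299, for PDP1 (-0.13 to 0.33), PDHB (-0.045 to 0.0031) and PDK2 (-0.0089 to 0.11) in A549, for PDP1 (-0.19 to 0.27) and DLAT (-0.076 to 0.032) in the difference, and for PDHX (-0.041 to 0.039) between the lines with VGF. The cause was not tested. PDK4 in H1299 rests on few counts, at 62 to 114 a library.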
